A study of Mus musculus with 2 samples.

Results

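Potassium channel subunits are encoded by a large gene family, and 92 of its members were followed here out of 31053 genes counted in nuclei of the mouse entorhinal cortex. Members were taken by symbol, as the voltage-gated subfamilies Kcna to Kcnd, Kcnf to Kcnh, Kcnq, Kcns and Kcnv, the inward rectifiers Kcnj, the 2-pore-domain leak channels Kcnk, the calcium- and sodium-activated channels Kcnma1, Kcnn, Kcnt and Kcnu1, and the auxiliary subunits Kcnab, Kcne, Kcnip and Kcnmb. The symbol rule uses no measured value, though it was set with earlier results of these data known. Single-nucleus RNA libraries, 2 in number, were compared, both from male APP/PS1 mice, which carry the APP and PS1 transgenes and were 18 months old at collection. In each library the tissue of 5 mice was pooled. The OLE library came from mice given C18:1-Leu (N-oleoyl-leucine, an N-acyl amino acid) at 25 mg/kg/day from the age of 15 months, and the vehicle library from mice given DMSO, in both cases in alkaline drinking water. A wild-type library was not analysed here, so every value below belongs to transgenic tissue, and the difference between treatments cannot be told apart from the difference between the 2 pools. With 1 library per condition no test between conditions was possible. Intervals are exact 95% intervals that cover counting error only.

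Potassium channels let K+ leave the cell and so set the resting potential, end the action potential and limit repetitive firing. Voltage-gated pore subunits assemble as tetramers, within a subfamily or with electrically silent partners that form no channel by themselves. Inward rectifiers and leak channels hold the resting potential, and in astrocytes they clear the K+ that active neurons release. Auxiliary subunits change trafficking, gating or calcium sensitivity of the pores they bind. Fast-spiking interneurons are known for Kv3 channels, which allow brief spikes at high rates, and oligodendrocytes and astrocytes for Kir4.1, the product of Kcnj10.

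The vehicle library held 6745 nuclei with 70845739 UMIs (unique molecular identifiers, each a counted RNA molecule) and the OLE library 6173 nuclei with 69485537 UMIs, and 14 cell barcodes occurred in both. Removal of the highest doublet scores left 12227 nuclei, which formed 25 clusters without use of the member genes. Of these, 13 clusters were glutamatergic-like (1970 vehicle and 1922 OLE nuclei) and a further pair GABAergic-like (321 and 354), while oligodendrocyte-like (586 and 528), microglia-like (340 and 271), astrocyte-like (120 and 136), oligodendrocyte precursor-like (OPC-like, 101 and 84), vascular leptomeningeal-like (85 and 82), endothelial-like (17 and 39) and mural-like nuclei (11 and 16) made up the rest of the named classes. The largest cluster and a smaller one, 2828 vehicle and 2416 OLE nuclei together, stayed unnamed. The entorhinal marker list was detected in glutamatergic-like nuclei of both libraries with 8 of 8 genes, and 7 of 7 markers of dentate and hippocampal pyramidal cells were detected too. The summed level of the entorhinal list was 2098 CPM (UMIs per 1000000 UMIs of a class) in the vehicle and 1872 in the OLE library. That of the other list was 216.3 and 261.0, but the lists hold different genes, so the sums do not settle the tissue.

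Members supplied 2.45% of all UMIs in the vehicle library and 2.34% in the OLE library. At least 1 UMI was counted for each of the 92, and 70 reached 200 UMIs over both libraries. The remaining 22 had between 1 and 125 UMIs and included all 4 Kcne genes (the highest, Kcne4, with 65), the muscle-type Kcna7 with 2 and the kidney channel Kcnj1 with 2. Kcnip4, a KChIP that binds the intracellular end of Kv4 pores, alone took 38.1% of the member UMIs, and together with Kcnd2, Kcnq5, Kcnma1 and Kcnh7 it made up 71.6%. Reads from introns were counted, and these 5 genes are long. Member genes span 1.90 to 1135 kb, so levels of different genes are compared below per 100 kb of gene span.

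**Figure D1:**
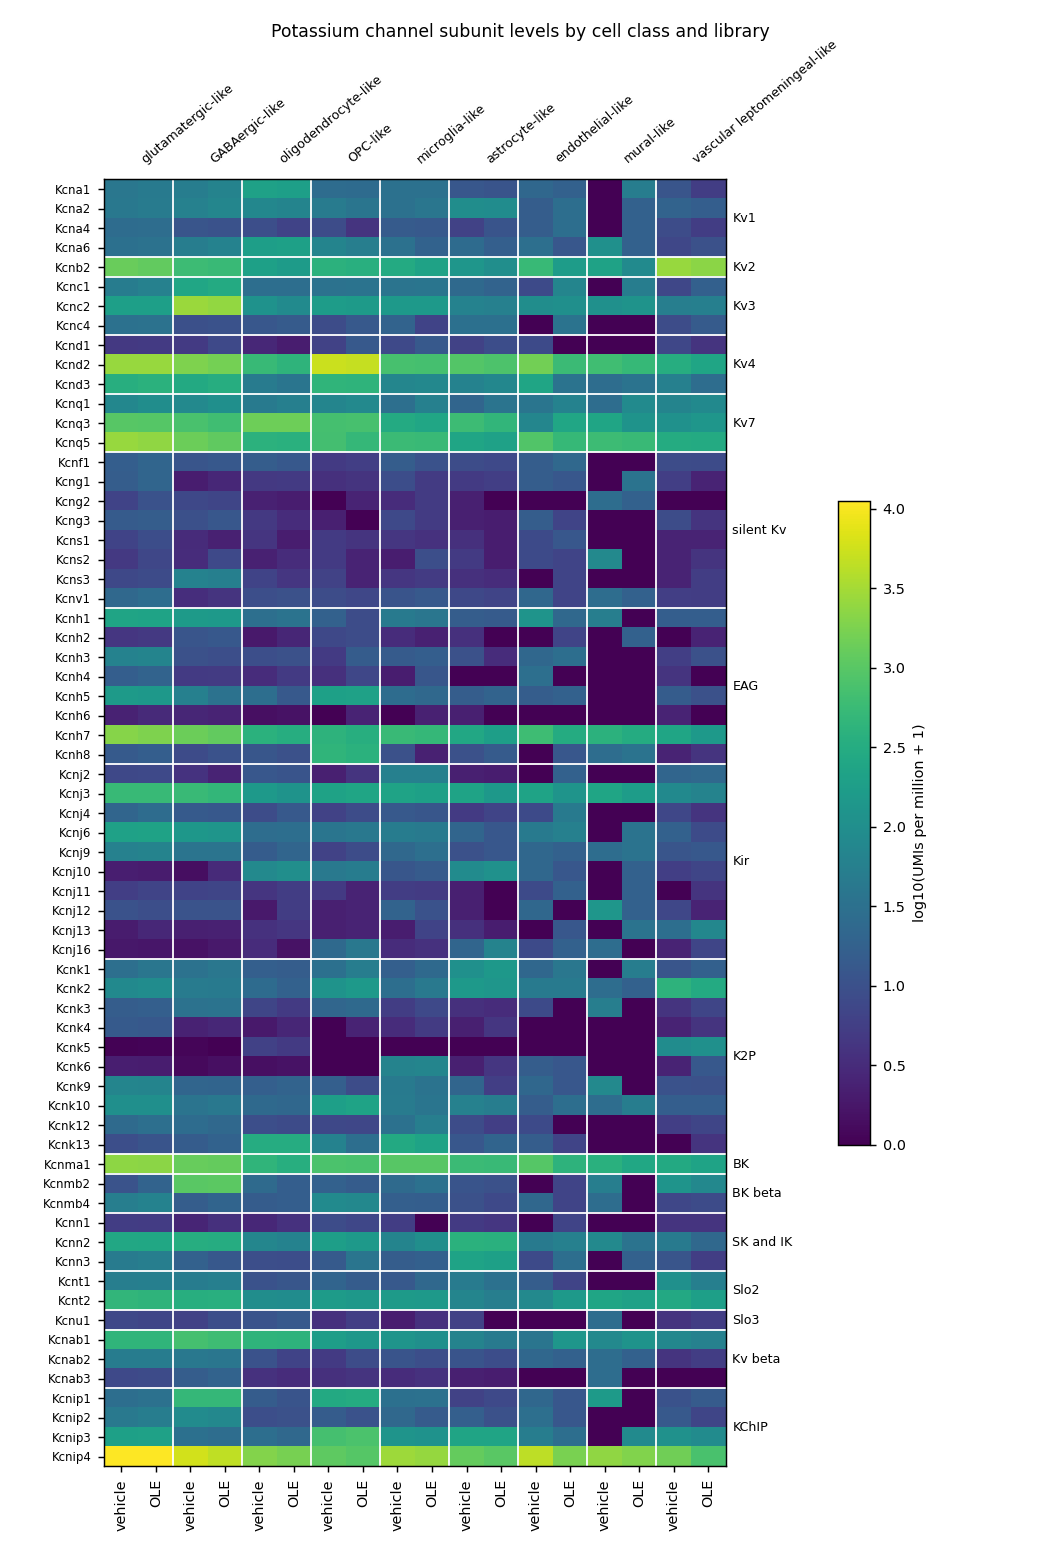
Level of 66 members with at least 200 UMIs (rows, grouped by family) in 9 cell classes of the vehicle and OLE libraries (columns), as log10(CPM + 1). Kcnip4, Kcnd2, Kcnq5, Kcnma1 and Kcnh7 are high in both neuronal classes; Kcnc2 and Kcnmb2 stand out in GABAergic-like nuclei, Kcnk13 in oligodendrocyte- and microglia-like nuclei, and Kcnb2 in vascular leptomeningeal-like nuclei.

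Class-restricted members are described first by their promoters. The 250 bases upstream of the annotated start are given for 3 genes chosen after their values were seen, from RefSeq on GRCm38.p6. These are Kcnj10 (raised in glia), Kcnk13 (raised in oligodendrocyte- and microglia-like nuclei) and Kcnj8 (raised in mural-like nuclei and in few endothelial-like ones). Capitals mark the letters AGGAAG or their reverse complement CTTCCT, the core of sites of ETS-family factors. Promoters were found in this reference for 67 of the 92 members.
Kcnj10, chr1:172340960-172341209, + strand: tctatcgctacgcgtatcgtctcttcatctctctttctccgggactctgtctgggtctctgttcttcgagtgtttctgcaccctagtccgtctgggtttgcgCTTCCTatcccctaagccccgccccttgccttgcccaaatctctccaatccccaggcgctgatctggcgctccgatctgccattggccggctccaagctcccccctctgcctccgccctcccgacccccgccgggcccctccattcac
Kcnk13, chr12:99964249-99964498, + strand: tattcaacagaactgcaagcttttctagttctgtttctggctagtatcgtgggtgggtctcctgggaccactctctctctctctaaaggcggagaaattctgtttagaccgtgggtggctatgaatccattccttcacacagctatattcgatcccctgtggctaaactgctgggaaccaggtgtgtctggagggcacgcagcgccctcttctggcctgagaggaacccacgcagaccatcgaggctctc
Kcnj8, chr6:142571615-142571864, - strand: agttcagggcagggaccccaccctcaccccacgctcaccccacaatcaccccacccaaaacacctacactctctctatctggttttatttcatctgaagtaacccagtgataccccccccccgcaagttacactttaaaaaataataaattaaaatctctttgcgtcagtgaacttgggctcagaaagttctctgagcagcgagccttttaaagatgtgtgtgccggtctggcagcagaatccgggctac
The letters occurred at 1 place in the Kcnj10 window and were not in the others, and 29.5% of all 32851 promoter windows of that length hold them. ACAAAG or CTTTGT, the core of SOX-family sites, was in none of the 3 windows and in 16.5% of all windows. The Kcnj10 window held 17 CpG dinucleotides, the Kcnk13 window 8 and the Kcnj8 window 6, against a median of 6 over all windows.

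In glutamatergic-like nuclei the pore subunit with the highest level, without regard to length, was Kcnd2. It encodes the Kv4.2 pore behind the dendritic A-current and was at 2697 CPM in the vehicle and 2634 in the OLE library, and its partner Kcnip4 at 11170 and 10960. Kcnq5 and Kcnq3, whose products contribute to the muscarine-sensitive M-channel, were at 2624 and 2411 and at 997 and 959. Per 100 kb of gene span the order changed. Kcnip4 stayed first with 984 and 965 CPM per 100 kb, but the short genes Kcnj9 (682 and 733) and Kcna1 (650 and 738) came next, ahead of Kcnd2 (524 and 512), Kcnq5 (466 and 428) and Kcnh7 (420 and 377). Kcnj9 and Kcna1 exchanged places between the libraries, so their order was not settled. Kcnj9 encodes the G-protein-gated GIRK3 subunit, and Kcna1 the axonal Kv1.1. The other GIRK genes Kcnj3 (GIRK1) and Kcnj6 (GIRK2) were at levels of 537 and 527 and of 210 and 218 CPM. Kcnma1, the BK pore opened by calcium and depolarization together, was at 2273 and 2197 in glutamatergic-like and 1298 and 1214 in GABAergic-like nuclei.

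In GABAergic-like nuclei a Kv3 gene stood first per length. Kcnc2 (Kv3.2) was at 1387 and 1247 CPM per 100 kb in the vehicle and OLE library, followed by Kcna1 at 837 and 1072 and Kcnc1 (Kv3.1) at 584 and 713. Kcna2 (Kv1.2) was at 433 and 521 and Kcnip4 at 513 and 402.5, and these 2 exchanged places between the libraries.

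Levels of the GABAergic-like and glutamatergic-like classes were compared for the 64 members with at least 200 UMIs over both classes. Of these, 8 were at least 2 times higher in GABAergic-like nuclei in both libraries, beside 4.86% of all genes, and 17 were at least 2 times higher in glutamatergic-like nuclei, beside 7.44% of all genes. The glutamatergic-like class held most of the UMIs, and several of the 17 passed the minimum only through it, so the filter favoured their calls. Nothing is read from these counts. The members higher in GABAergic-like nuclei were Kcnmb2, Kcnip1, Kcnc2, Kcns3, Kcnc1, Kcnh2, Kcnab3 and Kcnk3. Kcnmb2, the beta2 subunit that inactivates BK channels, showed the widest ratio, 106 in the vehicle and 57.1 in the OLE library, from 1028 and 1050 CPM in GABAergic-like against 9.67 and 18.4 in glutamatergic-like nuclei. The 2 libraries differed here in the glutamatergic-like level. Kcnip1, a KChIP used as an interneuron marker, had ratios of 18 and 15.8. Kcnc2 had 14.3 and 12.9, with 2717 (2678 to 2756) and 2443 (2405 to 2481) CPM in GABAergic-like nuclei. Kcnc1, which forms Kv3 channels with Kcnc2, had 5.06 and 5.16. Kcns3 (Kv9.3), a silent subunit that pairs with Kv2 pores, had 9.14 and 7.51. The smaller ratios were those of Kcnh2 (the erg channel, 3.18 and 3.23), Kcnk3 (the acid-sensitive leak channel TASK-1, 2.22 and 2.13) and Kcnab3 (a Kv beta subunit, 2.12 and 2.49). The other BK beta subunit well detected, Kcnmb4, went the opposite way, with ratios of 0.276 and 0.317.

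**Figure D2:**
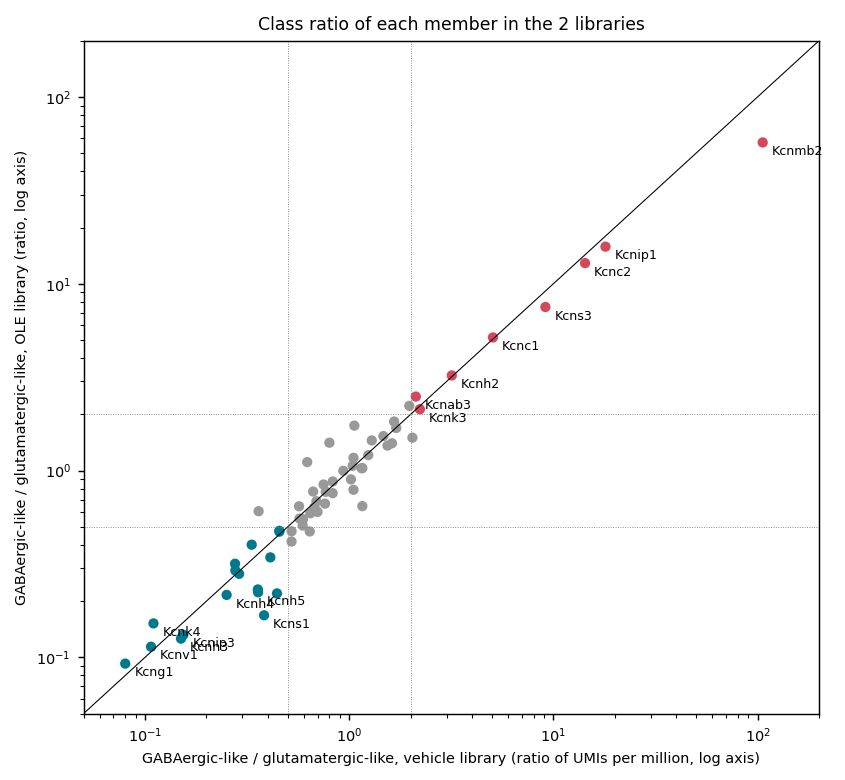
Ratio of CPM in GABAergic-like to glutamatergic-like nuclei for 64 members, vehicle library on the x axis and OLE library on the y axis (both log axes; dotted lines at ratios of 0.5 and 2, diagonal at equality). Points are members, red for at least 2 times higher and teal for at least 2 times lower in GABAergic-like nuclei in both libraries; Kcnmb2 at 106 and 57.1 lies below the diagonal.

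The members counted as higher in glutamatergic-like nuclei included some silent Kv subunits, EAG-family channels and leak channels. Each of these families also had a member counted the other way, Kcns3, Kcnh2 and Kcnk3, so no family pattern is read. Kcng1 (Kv6.1) was lowest in GABAergic-like nuclei relative to glutamatergic-like, at ratios of 0.080 and 0.093, on 20 GABAergic-like UMIs. The silent subunit gene Kcnv1 (Kv8.1) followed with 0.107 and 0.114, on 37. Kcnb2, a Kv2 pore of the kind these silent subunits join, was also in the list, with 0.455 and 0.471. Of the EAG family, Kcnh3 (0.150 and 0.126), Kcnh4 (0.251 and 0.216) and Kcnh5 (0.358 and 0.223) belonged to it. Kcnk4 (TRAAK, a mechanosensitive leak channel) was at 0.110 and 0.152, on 22 GABAergic-like UMIs, and Kcnip3 at 0.154 and 0.132. Further members were Kcna4, Kcnc4, Kcnj2, Kcnk9, Kcnk10, Kcnmb4, Kcnn3 and Kcns1, with ratios from 0.168 to 0.443. Of these, Kcns1 and Kcnj2 rested on 24 and 30 GABAergic-like UMIs. Of the Kv3 genes, Kcnc1 and Kcnc2 were higher in GABAergic-like nuclei and Kcnc4 (0.277 and 0.292) higher in glutamatergic-like nuclei.

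Within each neuronal class the members differed between clusters, which were formed without them. The GABAergic-like nuclei separated into Pvalb-like (116 vehicle and 123 OLE nuclei), Sst-like (96 and 106), Lamp5-like (62 and 66) and Vip-like (47 and 59) subclusters. Kcnc2 was at 4250 and 3693 CPM in Pvalb-like, 2971 and 2752 in Sst-like, 1335 and 1024 in Vip-like and 435 and 505 in Lamp5-like nuclei, the same order in both libraries. Kcnc1 was highest in Pvalb-like nuclei too, at 383 and 484, and in the other 3 subclusters lay between 156 and 246.5. Kcnip2 was at 163 and 166 in Pvalb-like nuclei and at most 64.0 in any other subcluster. Kcnn3, the SK3 calcium-activated channel, was lowest in Pvalb-like nuclei (1.496 and 2.44) and reached 47.7 and 37.6 in Lamp5-like nuclei. SK2, from Kcnn2, split the subclusters in another way, with 736 and 732 in Lamp5-like and 617 and 586 in Vip-like nuclei against 178 and 149 in Pvalb-like and 109 and 136 in Sst-like nuclei. Kcnt2, a sodium-activated channel, was at 1520 and 1502 in Vip-like nuclei and at 92.8 and 65.8 in Pvalb-like nuclei.

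**Figure D3:**
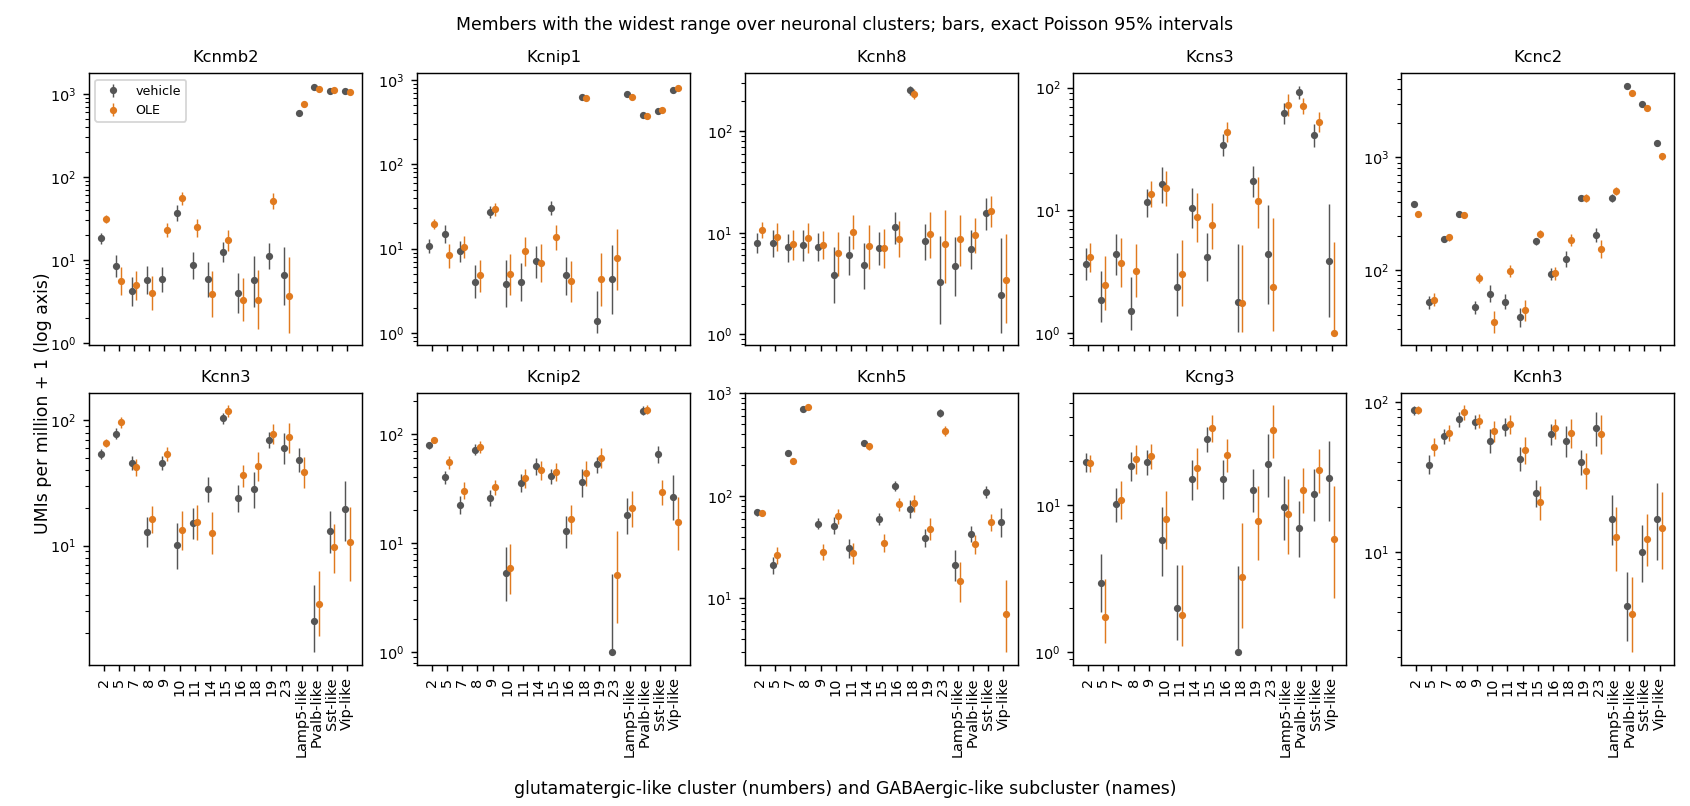
CPM + 1 (log axis) of the 10 members with the widest range, in 13 glutamatergic-like clusters (numbers) and 4 GABAergic-like subclusters (names); grey, vehicle; orange, OLE; bars, exact Poisson 95% intervals. Kcnh8 is high in cluster 18 alone, and Kcnip1 in cluster 18 and the GABAergic-like subclusters.

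Of 64 members, 44 had their highest level in the same one of the 17 neuronal clusters in both libraries. Glutamatergic-like cluster 18, led by Skap1 and Vwc2l, held 64 vehicle and 77 OLE nuclei. Kcnh8 (the Elk3 channel) was at 252 and 232 CPM there and at 1.43 to 15.3 in the other neuronal clusters. Kcnip1 was at 623 and 612, within the range of the GABAergic-like subclusters (370 to 789), while the remaining glutamatergic-like clusters did not exceed 29.3. In the same cluster the GABAergic markers Gad1 (5.46 and 6.78) and Gad2 (2.34 and 9.04, on 3 and 12 UMIs) stood beside values over all glutamatergic-like nuclei of 4.40 and 6.24 for Gad1 and 3.12 and 6.26 for Gad2. Kcnmb4, the neuronal BK beta4 subunit, also peaked in cluster 18 with 157 and 165.

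Other glutamatergic-like clusters were set apart by other members. Kcnh5 (Eag2) was at 704 and 735 in cluster 8, a Rorb cluster, at 639 and 431 in cluster 23, and at 20.1 and 25.5 in cluster 5. Kcnab1 was at 1019 and 1040 in cluster 10 and at 34.7 and 51.8 in cluster 11, marked by Syt6 and Foxp2. Kcnb2 was also low in cluster 11 (132 and 139), against 2140 and 1898 in cluster 14. Kcnk2 (the mechanosensitive leak channel TREK-1) had its highest neuronal level in cluster 11, 216 and 215, and was at 22.5 and 34.0 in cluster 2. Kcnd2 was at 5234 and 4798 in cluster 10, its highest neuronal level, and at 1579 and 1405 in the Reln cluster 19. Kcnn3 was highest in cluster 15, with 103 and 118, and Kcng3 in the same cluster with 27.2 and 32.8.

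Free RNA was not measured directly, so glial levels are given beside those of 28 genes fixed as neuronal. For these genes, all outside the family, the level in oligodendrocyte-like nuclei was a median of 20.5% of the glutamatergic-like level in the vehicle and 19.2% in the OLE library, and in OPC-like, microglia-like and astrocyte-like nuclei 23.1% and 22.9%, 30.1% and 27.4%, and 12.3% and 11.7%. Across the 4 glial classes single genes of that list ranged from 3.56% to 224%, so the list is not a measure of free RNA alone. Of the 65 members compared in oligodendrocyte-like nuclei, 20 in the vehicle and 21 in the OLE library lay at or below the median of that list. Kcnip4 was at 2016 and 1623 CPM in oligodendrocyte-like nuclei against 11170 and 10960 in glutamatergic-like nuclei, a share below the list's median. Free RNA and expression cannot be told apart at such levels.

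Members at least 2 times higher than in glutamatergic-like nuclei in both libraries numbered 4 of 65 in oligodendrocyte-like, 4 of 64 in OPC-like, 3 of 65 in microglia-like and 3 of 65 in astrocyte-like nuclei. The shares of all genes so called were 14.4%, 10.2%, 21.2% and 13.9%. Kcnj10 (96 UMIs in glutamatergic-like nuclei) and Kcnk6 (103) reached the 200 UMIs needed only together with a glial class in which they were high, so the filter favoured their calls and nothing is read from these counts. Kcnj10 was at 80.5 (69.0 to 93.3) CPM in vehicle and 98.1 (84.0 to 113.8) in OLE oligodendrocyte-like nuclei and at 90.1 (70.1 to 114.0) and 109.8 (89.0 to 134.1) in astrocyte-like nuclei, against 1.17 and 1.00 in glutamatergic-like nuclei. Kcnj16, whose Kir5.1 product pairs with Kir4.1, had too few UMIs for that count. In astrocyte-like nuclei 15 UMIs were counted for it in the vehicle and 55 in the OLE library, 19.6 (10.96 to 32.3) and 62.9 (47.4 to 81.9) CPM, in 14 of 120 and 40 of 136 nuclei, and in OPC-like nuclei it was at 23.4 and 40.7. In oligodendrocyte-like nuclei Kcnj16 was at 2.30 and 0.564, on 5 UMIs and 1 UMI.

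Oligodendrocyte-like nuclei also had the highest levels of 2 Kv1 genes. Kcna1 was at 206.5 and 188.8 CPM, 5.30 and 4.27 times the glutamatergic-like level, and Kcna6 at 188.1 and 202.3, 6.16 and 6.11 times. Kcnk13 (THIK-1), a leak channel known for the resting potential of microglia, was at 325.6 and 324.1 in oligodendrocyte-like and at 288.8 (254.5 to 326.6) and 220.1 (187.4 to 257.0) in microglia-like nuclei, against 8.37 and 10.4 in glutamatergic-like nuclei. Kcnk6 (TWIK-2) marked microglia-like nuclei, with 64.6 and 67.4 there, 1.21 and 1.12 in glutamatergic-like and 0.460 and 0.564 in oligodendrocyte-like nuclei. The strong inward rectifier gene Kcnj2 (Kir2.1) was at 57.8 and 56.4 in microglia-like nuclei. In astrocyte-like nuclei Kcnn3 (221.9 and 201.4) and Kcnk1 (TWIK-1, 107.0 and 140.7) passed the limit beside Kcnj10.

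OPC-like nuclei were led by other members. Kcnh8 was at 443 (397 to 493) and 380 (334 to 431) CPM, 33.7 and 25.4 times its glutamatergic-like level, and at most 13.7 in oligodendrocyte-like, microglia-like and astrocyte-like nuclei. Kcnip3 (calsenilin, which binds presenilins as well as Kv4 pores) was at 709 and 786, and Kcnip1 at 288 and 311. The Kv4.2 pore gene Kcnd2 had its highest class level here too, 5267 and 4842 against 2697 and 2634 in glutamatergic-like nuclei, a difference of under 2 times. The last member above the limit was Kcnk13, with 48 and 18 UMIs (62.4 and 28.2 CPM).

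Vascular classes were small, and their members are given with their UMIs. Kcnj8 (Kir6.1, the pore of the vascular ATP-sensitive channel) had 11 vehicle and 23 OLE UMIs in mural-like nuclei, 295 (147 to 528) and 390 (247 to 584) CPM, and 19 and 23 UMIs in endothelial-like nuclei, 137 and 131 CPM. It was detected in 6 of 11 and 10 of 16 mural-like nuclei but in 4 of 17 and 5 of 39 endothelial-like nuclei. A single endothelial-like nucleus held 10 of the 19 vehicle UMIs, and another 12 of the 23 OLE UMIs. The endothelial-like cluster also had 6 mural and 9 astrocyte markers raised, and the part of other cells in its Kcnj8 level was not tested. In glutamatergic-like nuclei Kcnj8 was at 0.043 and 0.024. The vascular leptomeningeal-like class joined 2 clusters with opposite members. Cluster 20, led by Slc47a1, had Kcnb2 at 4127 (3932 to 4330) and 3205 (3040 to 3376) CPM, above its level in any neuronal cluster, and Kcnk5 (TASK-2) at 148 and 161. Cluster 21, led by Ranbp3l and Slc7a11, had Kcnb2 at 117 and 122, no UMI of Kcnk5 (exact intervals up to 15.4 and 16.7 CPM), and Kcnk2 at 1045 and 788 against 27.1 and 56.6 in cluster 20. Kcnj13 (Kir7.1) lay mainly in cluster 21, with 14 vehicle and 34 OLE UMIs. Kcnk5, Kcnb2 in these clusters and the split itself were picked after their values were seen. Kcnk2, Kcnmb2 and Kcnj2 passed the limit of 2 times in the class as a whole, Kcnk2 with 405.6 and 300.4, Kcnmb2 with 124 and 77.0 and Kcnj2 with 20.1 and 22.6 CPM, and Kcnj12 and Kcnh8 passed it in mural-like nuclei on 6 and 3 UMIs.

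OLE and vehicle were then compared within each class. In glutamatergic-like nuclei 64 members had at least 200 UMIs. Of these, 9 were at least 25% higher in the OLE library, beside 12.2% of all genes, and 0 were at least 20% lower (the same fold downward), beside 0.925%. The members' median log2 ratio was 0.11 and that of all genes 0.06. The share of members called was near that of all genes. In GABAergic-like nuclei 4 of 42 members were higher, beside 13.7% of all genes, and 2 lower, beside 1.79%, and the median was -0.05 for members and 0.06 for all genes. The intervals lay above 0 for 32 and below 0 for 11 glutamatergic-like members, and above 0 for 7 and below 0 for 12 GABAergic-like members, but they cover counting error alone and not the spread between mice.

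**Figure D4:**
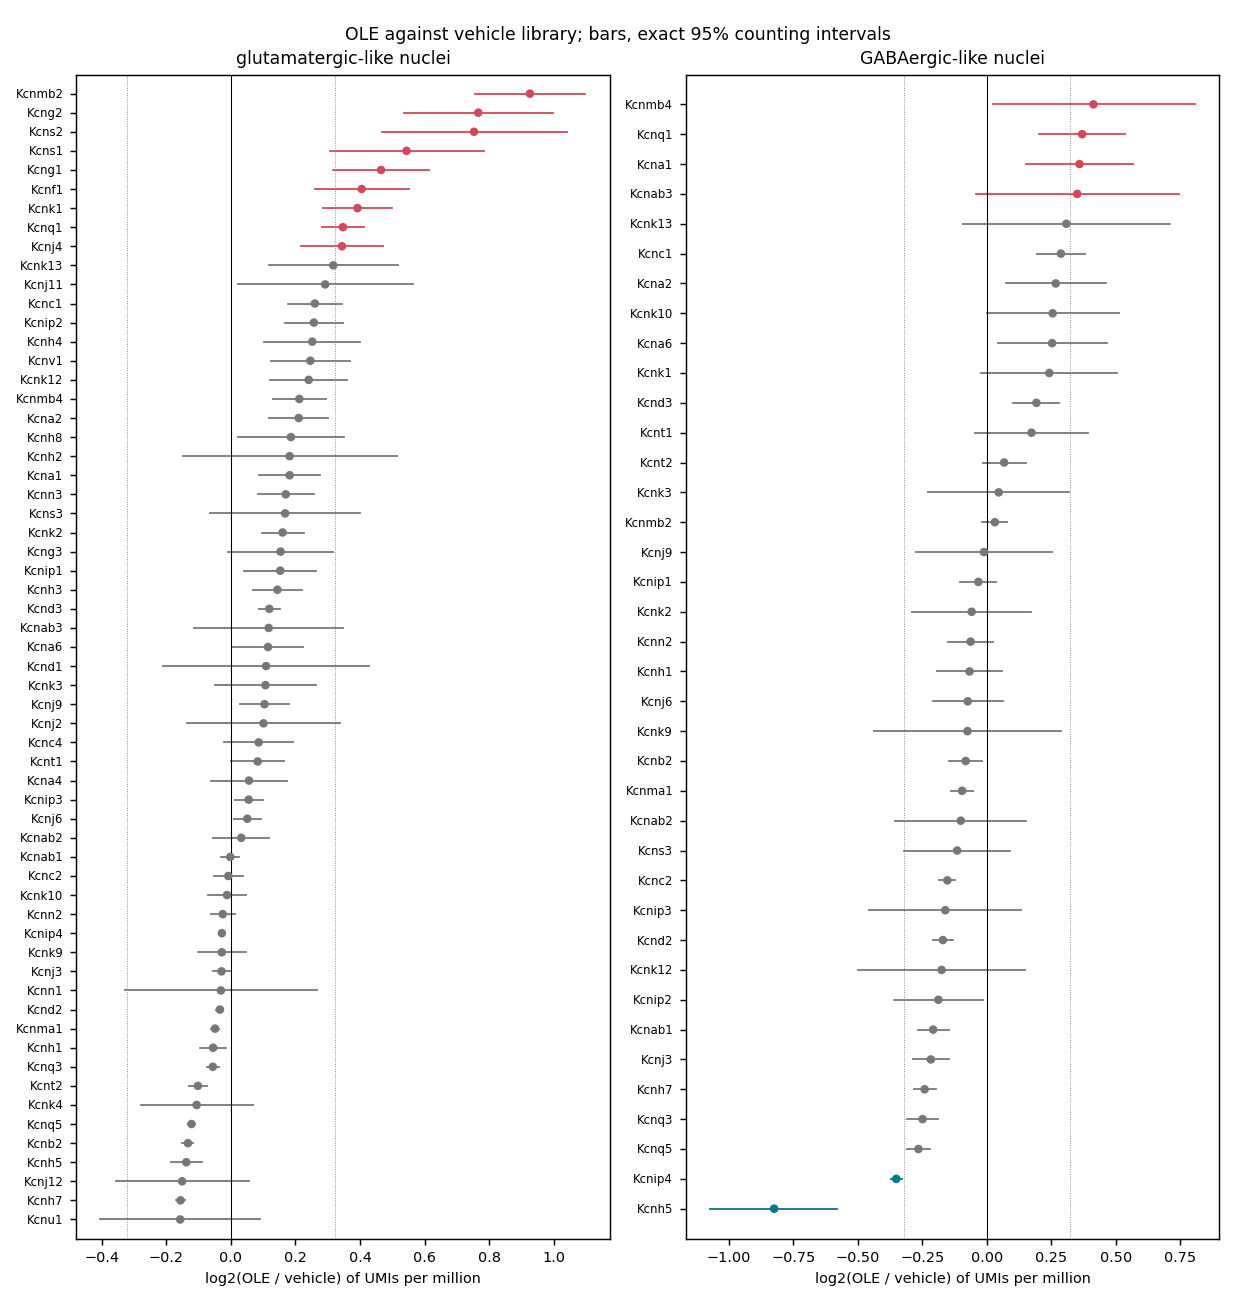
log2(OLE/vehicle) of CPM for 60 members with at least 200 UMIs in glutamatergic-like (left) and 38 in GABAergic-like nuclei (right); bars, exact 95% counting intervals; dotted lines, the limits of 25% higher and 20% lower; red, higher and teal, lower by at least that much. Silent Kv genes and Kcnmb2 head the left panel, and Kcnh5 lies apart at -0.82 in the right panel.

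Silent Kv subunits made up 5 of the 9 members higher in OLE glutamatergic-like nuclei, out of 8 silent members with enough UMIs there. This group was picked after its values were seen and has no test, and 12.2% of all genes were as much higher. Kcns1, Kcns2 and Kcnf1 are under 10 kb long, where the median log2 ratio of all genes was 0.21, and with that median set to 0 Kcnf1 was at 0.20, under the limit. Kcng2 (Kv6.2) was at 5.57 in the vehicle and 9.48 CPM in the OLE library, a log2 ratio of 0.77 (0.54 to 1.00). Kcns2 (Kv9.2) was at 3.69 and 6.22, log2 0.75 (0.47 to 1.04), and Kcns1 (Kv9.1) at 5.62 and 8.19, log2 0.54 (0.31 to 0.78). Kcng1 had a log2 ratio of 0.47 and Kcnf1 (Kv5.1) of 0.41. The other 3, Kcng3, Kcns3 and Kcnv1, lay between 0.15 and 0.25. The Kv2 pore gene Kcnb2 had a log2 ratio of -0.13. With each cluster given equal weight, the log2 ratio of Kcng2 was 0.47.

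Kcnmb2 had the largest ratio in glutamatergic-like nuclei, with 446 UMIs in the vehicle and 772 in the OLE library, a log2 ratio of 0.93 (0.76 to 1.10). The share of nuclei with a Kcnmb2 UMI was 11.4% (10.0 to 12.9) in the vehicle and 12.2% (10.8 to 13.8) in the OLE library, beside 94.4% and 94.9% of GABAergic-like nuclei. Nuclei with 10 or more of its UMIs numbered 5 in the vehicle, with 62 UMIs in all, and 13 in the OLE library, with 308. Over all glutamatergic-like nuclei the GABAergic marker Gad2 was at 3.12 and 6.26 CPM and Gad1 at 4.40 and 6.24. These markers were not counted in the nuclei with 10 or more Kcnmb2 UMIs alone. The part of GABAergic RNA in the Kcnmb2 result was not tested. Cluster by cluster the ratio was uneven, from 10.3 and 50.9 CPM in cluster 19 and 4.87 and 21.9 in cluster 9 to 7.56 and 4.66 in cluster 5. Without clusters 9, 11 and 19 the log2 ratio of Kcnmb2 was 0.62, on 372 vehicle and 539 OLE UMIs. Cluster 2 held 150 and 310 of these. In cluster 2 Gad1 was at 4.36 and 8.99 CPM, Gad2 at 5.05 and 10.9 and Kcnip1 at 9.75 and 18.7, while Kcnc2 went the other way, at 384 and 316. As a mean over nuclei of the whole class the log2 ratio of Kcnmb2 was 0.69.

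Kcnq1, the Kv7.1 pore best known from the heart, was at 75.2 and 95.6 CPM in glutamatergic-like nuclei, log2 0.35 (0.28 to 0.41), and at 78.5 and 101.4 in GABAergic-like nuclei, log2 0.37 (0.20 to 0.54). Its OLE value was above the vehicle value in 17 of 17 neuronal clusters. The leak channel gene Kcnk1 was the only other member of which this held, beside 1.78% of all genes, and no member was below in all 17, beside 0.077%. In all 4 glial classes the OLE value of Kcnq1 was also the higher one, but on fewer UMIs than the minimum set for a ratio. Vehicle and OLE UMIs were 100 and 99 in oligodendrocyte-like and 53 and 50 in OPC-like nuclei. They were 26 and 41 in microglia-like and 15 and 31 in astrocyte-like nuclei. The log2 ratios ran from 0.185 in OPC-like to 0.94 in microglia-like nuclei. Only the microglia-like interval (0.19 to 1.71) left out 0, and no direction is drawn from these few UMIs. Kcnq1 (ENSMUSG00000009545) lies at chr7:143106362-143427042 on the + strand of GRCm38, and the antisense transcript gene Kcnq1ot1 overlaps it on the other strand. How strand entered the counting is not given in the sources used here, so reads of the pair may not be fully apart. Kcnq1ot1 was at 736 and 699 in glutamatergic-like and 762 and 737 in GABAergic-like nuclei, log2 -0.08 and -0.05. Kcnk1 was at 28.6 and 37.5 in glutamatergic-like nuclei, log2 0.39 (0.29 to 0.50), and Kcnj4 (Kir2.3) at 20.2 and 25.6, log2 0.34.

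In GABAergic-like nuclei Kcnh5 had the lowest ratio, at 57.1 CPM in the vehicle and 32.3 in the OLE library, log2 -0.82 (-1.07 to -0.58). It was lower in each of the 4 subclusters, at 54.2 and 6.11 in Vip-like (38 and 5 UMIs), 109 and 54.7 in Sst-like, 41.5 and 32.9 in Pvalb-like and 20.1 and 13.8 in Lamp5-like nuclei. In glutamatergic-like nuclei its log2 ratio was -0.14 (-0.19 to -0.09). Kcnip4 was at 5829 and 4570 in GABAergic-like nuclei, log2 -0.35 (-0.37 to -0.33), and Kcnq5, Kcnq3 and Kcnh7 followed with -0.27, -0.25 and -0.24. One vehicle nucleus alone held 75 of the 398 vehicle UMIs of Kcnh5, against at most 13 of 211 in an OLE nucleus, and Kcnh5 was detected in 120 of 321 vehicle and 86 of 354 OLE nuclei. Without removal of doublets its log2 ratio was -0.57 and that of Kcnip4 -0.23, the latter under the limit. These 5 genes are 280.1 to 1135 kb long. The members counted as higher were Kcnmb4 (14.4 and 19.1 CPM, log2 0.41), Kcnq1, Kcna1 (50.1 and 64.2, log2 0.36) and Kcnab3 (14.6 and 18.7, log2 0.35, interval -0.04 to 0.74). Kcna1 was at 73.3 and 113 in Pvalb-like nuclei and at 39.97 and 23.2 in Vip-like nuclei. Kcnc2 and Kcnc1, both interneuron Kv3 genes, had log2 ratios of -0.15 and 0.29.

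Ratios of members went with gene length as did those of all genes. In glutamatergic-like nuclei the 9 members under 10 kb had a median log2 ratio of 0.25 and the 18 members of 200 kb or more one of -0.03, beside 0.21 and -0.02 for all genes of those lengths. In GABAergic-like nuclei the medians were 0.35 for 3 members and -0.08 for 17, beside 0.29 and -0.05. The rank correlation of length with the log2 ratio was -0.48 over 64 glutamatergic-like members and -0.39 over 12538 genes, and -0.51 over 42 GABAergic-like members and -0.42 over 7467 genes. The genes share the 2 libraries and their depth, and the part of length in the differences was not tested. With the median of each length band set to 0, Kcnf1 (0.20), Kcnj4 (0.27) and Kcnk1 (0.315) were under the limit in glutamatergic-like nuclei and Kcna1 (0.06), Kcnab3 (0.06) and Kcnip4 (-0.30) in GABAergic-like nuclei, and the members' median in glutamatergic-like nuclei was 0.04.

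**Figure D5:**
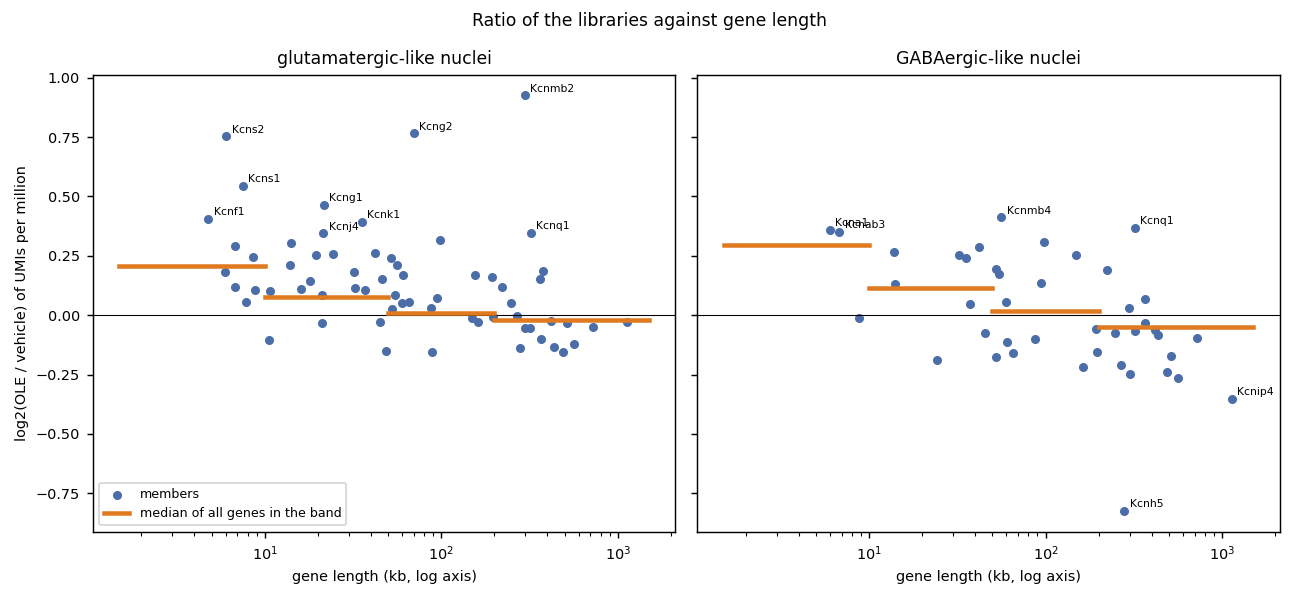
log2(OLE/vehicle) of CPM against gene length in kb (log axis) for members (blue points) in glutamatergic-like (left) and GABAergic-like nuclei (right), with the median of all genes in each of 4 length bands (orange lines). The orange lines descend from 0.21 to -0.02 on the left and from 0.29 to -0.05 on the right; Kcnmb2, Kcng2 and Kcnq1 lie far above the line of their band.

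Glial comparisons of OLE with vehicle rested on few genes and nuclei. Members counted as higher numbered 0 of 17 in oligodendrocyte-like, 0 of 18 in OPC-like, 0 of 11 in microglia-like and 1 of 12 in astrocyte-like nuclei, beside 7.27%, 6.75%, 5.15% and 6.70% of all genes. Those counted as lower numbered 2, 3, 2 and 3, beside 4.69%, 6.75%, 8.16% and 8.73% of all genes. They included Kcnc2 (log2 -0.39) and Kcnma1 (-0.35) in oligodendrocyte-like, Kcnb2 (-0.52) in microglia-like and Kcnj3 (-0.64), Kcnh7 (-0.50) and Kcnq3 (-0.33) in astrocyte-like nuclei. The median level of the 28 neuronal genes given above was also lower in the OLE library in all 4 classes. Its part in these values was not tested. Without removal of doublets Kcnh7 and Kcnq3 in astrocyte-like nuclei changed sign, to 0.52 and 0.20, as did the 3 OPC-like members Kcnq5, Kcnab1 and Kcnn2. In the same setting Kcnj3 in astrocyte-like (-0.12), Kcnb2 in microglia-like (-0.17) and Kcnk1, the member higher in astrocyte-like nuclei (0.40 with removal and 0.18 without), were under the limit, so no direction is drawn from any of these. Kcnk13, raised in microglia-like nuclei over neurons, had a log2 ratio of -0.39 (-0.69 to -0.10) there and of -0.01 (-0.17 to 0.15) in oligodendrocyte-like nuclei, where its level was as high.

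Genes that work with these channels were listed too. Of 29 partner genes (sulfonylurea receptors, calmodulins, receptors, scaffolds and other proteins that bind or gate K+ channels), 24 had enough UMIs in glutamatergic-like nuclei, and 2 of them were higher and 0 lower in the OLE library, beside 12.2% and 0.925% of all genes. In GABAergic-like nuclei 5 of 21 were higher and 0 lower, beside 13.7% and 1.79%. The calmodulin gene Calm3 was higher in both classes (log2 0.37 for glutamatergic-like, 0.67 for GABAergic-like nuclei). Others were Calm2 (0.41), the sulfonylurea receptor gene Abcc8 (0.38) and the muscarinic receptor gene Chrm1 (0.62) in GABAergic-like nuclei. Of 18 HCN, sodium and calcium channel pore genes, 2 of 17 were higher in glutamatergic-like nuclei, among them Scn9a (0.33), and 1 of 14 in GABAergic-like nuclei, Cacna1g (0.45), with 0 lower in either class, beside the same shares of all genes. That list had a median log2 ratio of 0.07 in the glutamatergic-like class and 0.08 in the GABAergic-like class, and the partners one of 0.05 and 0.01.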

How the data were processed

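Nuclei were isolated from pooled entorhinal cortex of 5 mice per library and sequenced with 10x Chromium 3′ v3 chemistry. The authors made the deposited UMI count matrices with Cell Ranger (3.0.1 in the methods) on an mm10 pre-mRNA reference, so intronic reads were counted, and worked with Seurat 4.0.4. Matrices of 6745 vehicle and 6173 OLE nuclei were taken as deposited, with no further filter on depth.

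Scrublet, run in scanpy 1.11.5, marked 0.104% and 0.13% of nuclei by its own threshold, which was not used, and the top 5% of scores were removed in each library instead. Counts were normalized with sctransform 0.4.2 and clustered in Seurat 5.3.0 (3000 variable genes without members, 30 components, resolution 0.4). Clusters were named from fixed markers, at least 3 raised 4-fold over the 10th percentile of clusters, and a cluster stayed unnamed where most markers of another class were raised in it too and none of its own was among its 10 leading genes. These thresholds were set after the clusters were seen, and the members and gene lists were chosen with earlier results of these data known. UMIs were summed per class and library and given as CPM, per 1000000 UMIs of the class. A ratio entered the counts of members only with 200 UMIs over both sides. The limits were 25% higher or 20% lower between libraries and 2 times between classes. Intervals are exact Poisson or binomial ones at 95%. No test was possible with 1 library per condition. All 92 members matched GENCODE vM21 on GRCm38, and 32 overlap a counted gene on the other strand. Members named in the text were the extremes of each comparison and a list fixed by role, besides those said to be chosen after their values were seen. The counting rule was also run on simulated counts with known ratios, which held counting error only. Python 3.11.15, numpy 2.4.6, scipy 1.17.1 and R 4.3.3 were used. A few genes entered every fit and count but are not reported here by name.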

Additional observations from a re-analysis of the deposited data

Results flagged for a closer look

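Kcnip2, a KChIP, had a log2 ratio of OLE to vehicle of 0.257 in glutamatergic-like nuclei and of -0.188 in GABAergic-like nuclei, opposite directions under the same contrast. The difference between the classes was not tested, since each condition had 1 library. The nuclei left unnamed entered none of the main class comparisons. In an alternative setting the larger unnamed cluster was joined to the glutamatergic-like class. Its median UMIs per nucleus were 2364 in the vehicle and 4734 in the OLE library. Members supplied 2.07% of the UMIs of that cluster in the vehicle and 2.0% in the OLE library, and 1.7% and 1.43% in the smaller one.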

How the results depend on the processing

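No paired analysis was possible because each condition had 1 library. Of the values for whole comparisons, 217 alternatives were labelled as near the reported value and 39 as moved. Changes of sign were not labelled apart for these. Medians labelled as near include 0.057 for OPC-like (reported -0.108) and 0.011 for GABAergic-like nuclei (reported -0.046), without removal of doublets. They also include -0.352 for microglia-like nuclei (reported -0.151), with log-normalized counts before clustering. Of the values for single members 207 stayed, 11 moved and 5 changed sign. All 5 changes of sign among single members came without removal of doublets. In OPC-like nuclei they were to 0.057 for Kcnab1, 0.042 for Kcnn2 and 0.448 for Kcnq5. In astrocyte-like nuclei they were to 0.52 for Kcnh7 and 0.198 for Kcnq3. The cause was not tested. In the same setting members higher in OLE numbered 7 for GABAergic-like, 3 for OPC-like, 6 for astrocyte-like and 1 for microglia-like nuclei, those lower 1 for GABAergic-like, 1 for OPC-like, 0 for astrocyte-like and 10 in oligodendrocyte-like nuclei, and the astrocyte-like median was 0.109. A fold of 1.5 left 3 members higher in glutamatergic-like nuclei, 0 higher and 1 lower in GABAergic-like, 0 higher and 1 lower in astrocyte-like, and 0 lower in OPC-like, microglia-like and oligodendrocyte-like nuclei. A fold of 3 left 9 members higher in glutamatergic-like than in GABAergic-like nuclei. With the median of all genes set to 0, the member median was -0.108 for GABAergic-like and 0.045 for glutamatergic-like nuclei, and 1 member was higher in GABAergic-like nuclei. With the median of each length band set to 0 (added once the data had been seen), the glutamatergic-like median was 0.04, 2 members were higher and 1 lower in GABAergic-like, 0 higher in astrocyte-like, and 1 lower in OPC-like and in oligodendrocyte-like nuclei. A minimum of 500 UMIs gave 2 higher in GABAergic-like, 0 higher and 1 lower in astrocyte-like, 1 lower in OPC-like, 0 lower in microglia-like and 1 lower in oligodendrocyte-like nuclei, and a minimum of 100 UMIs gave 1 higher in microglia-like and 4 lower in oligodendrocyte-like nuclei. Means over nuclei gave 1 lower in GABAergic-like, 1 in OPC-like and 5 in microglia-like nuclei, and log-normalized counts before clustering 6 lower in microglia-like nuclei. Clusters of equal weight and the larger unnamed cluster joined to the glutamatergic-like class were also added after seeing the data. In endothelial-like and mural-like nuclei the few UMIs limit every value.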

Other observations

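In vascular leptomeningeal-like nuclei Kcnj13 (Kir7.1) was at 27.9 (16.5 to 44.0) CPM in the vehicle and 72.5 (53.4 to 96.1) in the OLE library, with 18 and 48 UMIs in 12 of 85 and 20 of 82 nuclei. Ttr, a marker of the choroid plexus where Kcnj13 is also known, had 4 and 12 UMIs in cluster 20 and 0 in cluster 21 of either library. Kl, looked up beside it, went the other way, with 0 UMIs in cluster 20 and 30 and 22 in cluster 21. Whether choroid plexus cells are among these nuclei was not tested.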
